A study of Sorghum bicolor with 14 samples.

Results

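The 100 genes described here had their deposited drought peak at about 7% soil moisture in the stem internode of sweet sorghum, with lower values both before and after that point. They were chosen by the drought values themselves, from 20898 loci that carry a single gene name and are above 0 in all 3 drought groups. The score of a locus is its log2(FPKM + 1) at 7% moisture (D2) minus the higher of its values at about 13% (D1) and 2% (D3), and the 100 loci with the highest score are the members. Because the drought values made the choice, those values describe the members and test nothing. The 4 development stages were not used for the choice, and 98 of the 100 members could be read there under the same name.

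RNA sequencing was done on the middle stem internode of Sorghum bicolor variety ICSV12012, in 14 libraries that form 7 groups of 2. Development plants grew in a soil bed given nitrogen fertilizer, and were taken when the flower initiated, at booting, at the milky stage and at soft dough. Drought plants grew singly in pots, were left without water from the flag leaf stage on, and were harvested at booting once the meter read about 13% (D1), 7% (D2) or 2% (D3). No watered pots are among the drought groups, and the sources used here do not say how many plants went into a library. Expression is given as FPKM, a measure that divides the fragments of a locus by its length and by the size of the library, with 1 deposited value per locus and group. None of the differences below therefore has a replicate check, and a D2 value set by 1 of the 2 libraries of that group cannot be told apart from one shared by both. FPKM hold no read totals, so the depth is unknown.

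The internode of a sweet sorghum stem is built of vascular bundles set in pith parenchyma, which stores soluble sugar as the plant ripens. When the soil dries, plants generally close stomata, slow growth and accumulate abscisic acid, and expression programs follow each other as the water deficit deepens, so that some transcripts are abundant only in part of the drying course. In bulk tissue, fewer cells of a type and less RNA per cell cannot be told apart. The loci are named by sorghum identifiers, for which the sources used here hold no product names, so no role is given to any member and the labelled tissue could not be checked by marker genes.

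Across the members, median expression was 1.76 FPKM in D1, 9.70 in D2 and 1.14 in D3, while the medians over all 20898 loci were 5.83, 6.03 and 5.76. In D2 the members ran from 1.58 to 759.8 FPKM, with 50 at or above 10 FPKM and 10 at or above 100. Their scores ran from 1.27 to 4.38 on the log2 scale, with a median of 1.60, and 21 members scored at least 2. A score of at least 1 was reached by 187 loci (0.895%) of the whole set, and the members are the upper part of these. By the same measure, 258 loci were at least 1 above both other drought groups in D1, and 479 in D3. Most members were lower at the dry end of the series than at the moist end: 65 of 100 had D3 below D1, against 48.7% of all loci with D1 above D3. The gap was at least 2-fold on the log2(FPKM + 1) scale in 13 members with D3 lower (3.67% of all loci) and in 4 with D3 higher (4.62%). In 31 members both D1 and D3 were under 1 FPKM, a share near the 24.9% of the loci read in both tables, and 0.736% of those at or above the lowest member in D2 were that low.

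**Figure D1:**
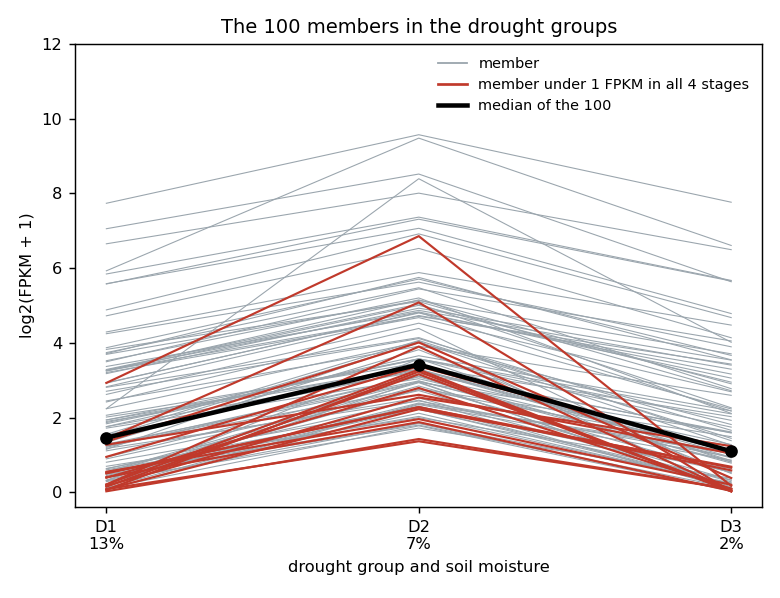
Expression of the 100 members as log2(FPKM + 1) in the 3 drought groups, 1 line per member, with the 18 members under 1 FPKM in all 4 stages in red and the median of the 100 in black. The median stands at 1.76 FPKM in D1, 9.70 in D2 and 1.14 in D3, and the peak at D2 follows from the way the members were chosen.

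At the head of the list stood Sobic.003G085300 (chromosome 3, 7351048 to 7362566), with 3.73 FPKM in D1, 335 in D2 and 15.2 in D3. Its D2 value was 90.02 times that of D1 and 22.1 times that of D3. In the stages it was at 5.30 FPKM at floral initiation, 21.0 at booting, 280.2 at the milky stage and 284 at soft dough. The level at 7% moisture is thus close to those of the 2 grain-filling stages, and far from that of booting, the stage at which the drought plants were cut. The drought table gives this locus the same coordinates as 3 other entries, and the stage table gives it a shorter span of 836 bases, so its FPKM in the 2 tables may not rest on the same transcripts.

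Other members had almost no expression in the stages. Sobic.009G236400 (chromosome 9, 57513306 to 57515626) was at 6.61 FPKM in D1, 115 in D2 and 0.129 in D3. The stage table lists it at 0 for both floral initiation and booting, with 0.0342 FPKM for the milky stage and 0.355 for soft dough. Of the 7 groups only D1 and D2 were above 1 FPKM.

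Sobic.009G246000 (chromosome 9, 58162911 to 58165468) was at 1.71 FPKM in D1, 32.9 in D2 and 0.0158 in D3, and no stage passed 0.0794 FPKM. Its D2 value was 19.3 times the D1 value. The next locus on the chromosome, Sobic.009G245900 (58159959 to 58161775), is a member as well, at 1.22, 15.6 and 0.0283 FPKM in the drought groups and between 0.440 and 1.23 in the stages. Both were higher in D1 than in D3.

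Several of these loci were low in D1 too. Sobic.006G099650 (chromosome 6, 47008567 to 47012876) was at 0.155 FPKM in D1, 13.9 in D2 and 0.0337 in D3, with a stage maximum of 0.266 at soft dough. Sobic.003G261733 (chromosome 3, 59961191 to 59965645) was at 0.0476, 8.39 and 0.0172 FPKM in the same order, and Sobic.005G204800 (chromosome 5, 69053659 to 69055461) at 0.157, 8.75 and 0.0235. For each of these loci D2 was the only one of the 7 groups above 1 FPKM.

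The same held for Sobic.003G439900 (chromosome 3, 73930706 to 73932390), at 0.111, 7.93 and 0.041 FPKM from D1 to D3, and for Sobic.001G112000 (chromosome 1, 8764580 to 8773756), at 0.311, 5.94 and 0.0703. The latter is listed at 0 in all stages but the milky stage, where it was at 0.0248 FPKM. Sobic.006G147400 (chromosome 6, 50895822 to 50899172) differed from them in its D1 value of 1.57 FPKM, with 15.1 in D2 and 0.305 in D3. Its stage values lay between 0.0245 and 0.120 FPKM, so that every drought group was above every stage.

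**Figure D2:**
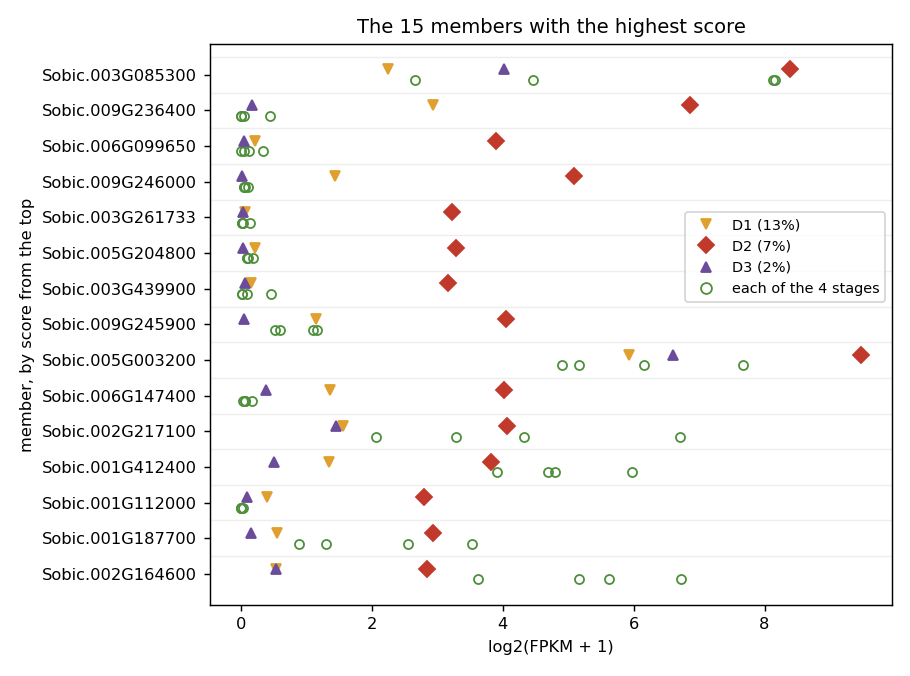
The 15 members with the highest score, with log2(FPKM + 1) in D1 (down triangles), D2 (diamonds), D3 (up triangles) and each of the 4 stages (open circles). For 8 of the 15 all stages lie under 1 FPKM, while Sobic.003G085300 has stage values near D2. Sobic.002G217100, Sobic.001G412400, Sobic.001G187700 and Sobic.002G164600 have stage values above D2.

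Taking 1 FPKM as the limit, 18 of the 98 members (18.4%) stayed under it in all 4 stages. That share is near the 19.3% of all loci, and it was between 10.3% and 30.6% when the offset of 1 was replaced or loci listed at 0 were admitted. Among the 13990 loci at or above the lowest member in D2, it was 1.56%. The rule favours loci with low D1 and D3, which bears on this comparison. Of the 31 members with D1 and D3 under 1 FPKM, 12 were under 1 FPKM in all stages, and of the 72 other loci with the same limits and the same minimum in D2, 13 were. Among the 15 members with the highest score 8 had this stage pattern, and 10 of the other 83 members had it. These 18 members had medians of 0.319 FPKM in D1, 5.52 in D2 and 0.0995 in D3, and 9 of them scored at least 2.

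Most of the abundant members differed from these in having high values in D1 and D3 as well, Sobic.003G085300 and Sobic.009G236400 being exceptions. Sobic.009G161500 (chromosome 9, 51870765 to 51871531) had the highest D2 value of the list, 759.8 FPKM, against 212 in D1 and 217 in D3. In the stages it was at 258 FPKM at floral initiation, 298 at booting, 103 at the milky stage and 380.4 at soft dough. All 7 groups were above 100 FPKM, and D2 exceeded the highest stage.

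Sobic.005G003200 (chromosome 5, 248888 to 252829) was at 59.9 FPKM in D1, 713 in D2 and 96.5 in D3, 11.9 times above D1. Booting, with 204 FPKM, was its highest stage, and floral initiation, with 28.9, its lowest. Sobic.002G118700 (chromosome 2, 14784463 to 14790415) was at 132 FPKM in D1, 366 in D2 and 48.7 in D3, but between 189.6 and 567 in the stages. Its D2 value lay inside the range of the stages, whereas D1 and D3 lay below all of them.

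D2 was also below a stage in further abundant members, namely Sobic.001G040200, Sobic.003G355800, Sobic.009G245000 and Sobic.010G273800. Sobic.001G040200 (chromosome 1, 2987434 to 2989263) was at 99.6 FPKM in D1, 256 in D2 and 89.2 in D3, with 439 at floral initiation and 144 at soft dough. Sobic.003G355800 (chromosome 3, 67408857 to 67412186) was at 56.4, 164 and 49.98 FPKM in the drought groups and at 601 at booting. The peak in D2 brought this locus to less than the booting level, a log2 difference of -1.87. By contrast, Sobic.010G246600 (chromosome 10, 58623150 to 58625186) was above all stages in each drought group, at 46.7, 158 and 49.4 FPKM against a stage maximum of 32.5.

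The limit of the list falls in a gradual slope of scores. The last 3 members were Sobic.006G268200 (8.54, 25.2 and 9.80 FPKM in D1, D2 and D3), Sobic.010G101900 (3.04, 8.77 and 1.01) and Sobic.002G005100 (1.26, 4.45 and 0.933), with scores of 1.28, 1.27 and 1.27. Just outside were Sobic.005G045800 (1.75, 11.8 and 4.30 FPKM), Sobic.007G051800 (35.2, 85.6 and 31.4) and Sobic.007G149800 (2.94, 8.40 and 1.64), with scores of 1.27, 1.26 and 1.26. Nothing separates the 2 sides of the limit but the rank.

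The stage values, which the rule did not use, show how the members behave in plants that were not dried. Their medians were 6.92 FPKM at floral initiation, 6.34 at booting, 4.24 at the milky stage and 4.77 at soft dough, against 6.12, 5.42, 4.93 and 5.39 over the 20543 loci read in both tables. Loci at or above the lowest member in D2 had higher medians, of 12.7, 12.3, 12.4 and 12.7 FPKM. Floral initiation was the stage of the highest value for 37 members (37.8%, against 32.5% of all loci), booting for 30 (30.6%, against 22.6%), the milky stage for 20 (20.4%, against 24.2%) and soft dough for 11 (11.2%, against 20.7%). Among the loci at or above the lowest member in D2 these shares were 27.8%, 23.3%, 25.8% and 23.2%. The low share at soft dough depended on the length of the list, since it was 17.5% among the 200 loci with the highest score. Members varied more between stages than loci in general. The highest and lowest stage differed at least 2-fold on the log2(FPKM + 1) scale for 71 of 98 members (72.4%), against 49.4% of all loci and 59.7% of those with the same minimum in D2.

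**Figure D3:**
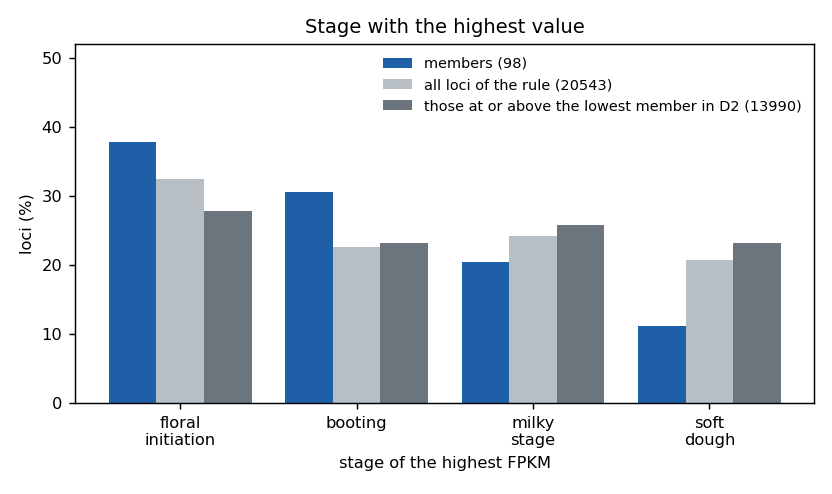
Share of loci, in percent, whose highest FPKM fell in each of the 4 stages, for the 98 members, for all 20543 loci of the rule read in both tables and for the 13990 of these at or above the lowest member in D2. Members were highest at floral initiation in 37.8% and at soft dough in 11.2%, against 32.5% and 20.7% of all loci.

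Taken step by step, differences of at least 2-fold on the log2(FPKM + 1) scale were more frequent among members than in the whole set, and more members were lower than higher at the later stage. From floral initiation to booting 20 members were higher (20.4%, against 12.6% of all loci) and 27 lower (27.6%, against 10.8%). From booting to the milky stage 17 were higher (17.3%, against 7.3%) and 26 lower (26.5%, against 12.4%). From the milky stage to soft dough 10 were higher (10.2%, against 7.49%) and 18 lower (18.4%, against 6.61%). Over the whole course, soft dough against floral initiation, 14 were higher (14.3%, against 10.9%) and 33 lower (33.7%, against 13.4%). Among loci with the same minimum in D2, the shares higher were 16.3%, 8.56%, 10.5% and 14.4% in the same order. Their shares lower were 11.6%, 15.2%, 7.83% and 13.7%. Against these loci, members were more often lower throughout, but not more often higher from the milky stage to soft dough or over the whole course. The median difference over that course was nevertheless small, -0.08 on the log2 scale, against 0.00 over all loci.

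By the stage of their highest value, the members other than the 18 under 1 FPKM fall into 4 classes, and the counts in the classes leave those 18 out. The largest class, of 34 members, was highest at floral initiation, with medians of 30.9 FPKM there, 6.63 at booting, 8.44 at the milky stage and 4.66 at soft dough. In the drought groups its medians were 1.85 FPKM in D1, 8.39 in D2 and 1.13 in D3. The peak in D2 therefore stayed below the level at floral initiation for most of them, and in 7 of the 34 D2 exceeded all stages.

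Within that class, Sobic.003G121100 (chromosome 3, 11039402 to 11055834) was at 252 FPKM at floral initiation, 15.5 at booting, 2.95 at the milky stage and 2.56 at soft dough. It was at 1.37 FPKM in D1, 7.61 in D2 and 1.43 in D3. From floral initiation to soft dough its difference was -6.15 on the log2 scale, wider than the 1.86 between D1 and D2.

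Sobic.002G217100 (chromosome 2, 60921100 to 60923918) was lower at each later stage, with 104 FPKM at floral initiation, 19.0 at booting, 8.80 at the milky stage and 3.17 at soft dough. In D2 it was at 15.7 FPKM, near booting, against 1.94 in D1 and 1.72 in D3. Sobic.002G154600 (chromosome 2, 46867369 to 46870750) had the same order, at 45.7, 5.43, 1.93 and 0.698 FPKM over the stages. Its drought values were 0.922 FPKM in D1, 6.73 in D2 and 0.086 in D3, again with D2 near booting.

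Not every member of the class had such a steady order. Sobic.004G157300 (chromosome 4, 49886945 to 49891210) was at 51.3 FPKM at floral initiation, 4.24 at booting, 13.3 at the milky stage and 1.14 at soft dough. It was at 0.25 FPKM in D1, 8.07 in D2 and 2.07 in D3. Sobic.002G164600 (chromosome 2, 51190885 to 51194788) stayed above 11 FPKM in every stage, with 105 at floral initiation and 48.5 at booting, yet was at 0.444 FPKM in D1, 6.20 in D2 and 0.442 in D3. For this locus all 3 drought groups lay below all stages.

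A class of 23 members was highest at booting, with medians of 5.17 FPKM at floral initiation, 17.3 at booting, 3.92 at the milky stage and 6.04 at soft dough. Its medians in the drought groups were 5.15, 19.9 and 3.54 FPKM, so that the class median in D2 was close to that at booting. Sobic.001G187700 (chromosome 1, 16552747 to 16553617) was at 4.88 FPKM at floral initiation, 10.5 at booting, 1.47 at the milky stage and 0.850 at soft dough, and at 0.470, 6.65 and 0.106 FPKM from D1 to D3. D1 and D3 were below its lowest stage and D2 lay between floral initiation and booting.

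The 16 members of the class highest at the milky stage had medians of 55.9 FPKM there and 25.0 at booting, and of 2.05, 10.9 and 1.23 FPKM in D1, D2 and D3. Sobic.009G245000 (chromosome 9, 58073717 to 58079719) reached the highest stage value of all members, 1516 FPKM at the milky stage, after 3.26 at floral initiation and 28.8 at booting. At 28.5 FPKM in D1 and 24.6 in D3 it was close to booting, and in D2 it stood at 119.9.

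Sobic.002G116000 (chromosome 2, 14334142 to 14341029) was at 0.0587 FPKM at floral initiation, 6.98 at booting, 309.5 at the milky stage and 26.9 at soft dough. Its D2 value of 10.8 FPKM, against 2.65 in D1 and 2.35 in D3, is small beside that stage peak. Sobic.001G083900 (chromosome 1, 6491161 to 6498175) was at 14.2 and 20.6 FPKM in the earlier stages and at 238 and 214 in the later ones, with 25.4, 91.3 and 16.6 in the drought groups. Here D2 lay between the earlier and the later stages.

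With the 18 members under 1 FPKM left out, 7 were highest at soft dough, among them Sobic.003G085300 and Sobic.009G161500. Sobic.010G273800 (chromosome 10, 60687867 to 60695066) was higher at each later stage, at 9.30, 26.6, 151 and 228 FPKM, and was at 47.0 in D1, 133 in D2 and 26.6 in D3. Its D2 value lay between booting and the milky stage, whereas that of Sobic.009G161500 was above every stage.

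**Figure D4:**
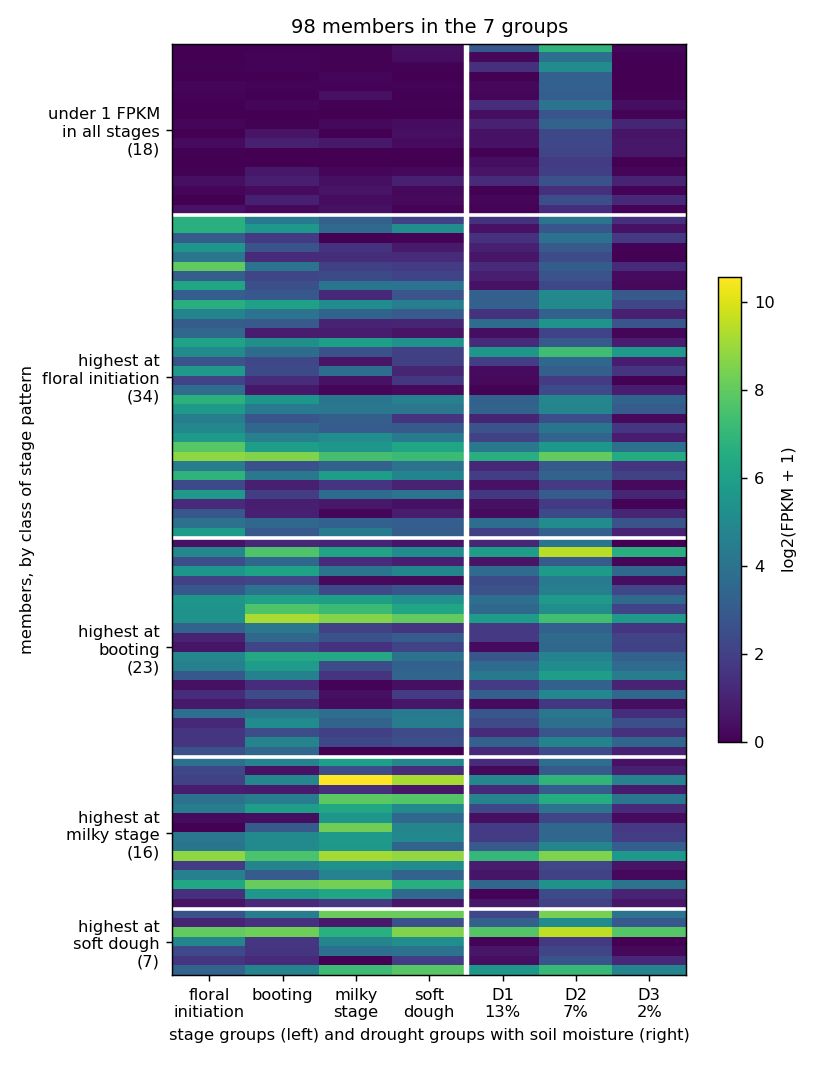
Heat map of the 98 members read in both tables, as log2(FPKM + 1) in the 4 stages (left of the white line) and the 3 drought groups (right), grouped by stage pattern and ordered by score within a class. The D2 column is brighter than its neighbours throughout by the choice of members, while the stage columns divide into 18 members under 1 FPKM, 34 highest at floral initiation, 23 at booting, 16 at the milky stage and 7 at soft dough.

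Booting plants were of the stage at which the drought plants were harvested. They grew in a soil bed and not in pots, and the 2 tables were quantified separately, so drought, pot and table cannot be told apart in values set across them. The choice of members fixed the drought side of these differences. In D2, 46 of 98 members were at least 2-fold above booting on the log2(FPKM + 1) scale (46.9%, against 11.2% of all loci) and 15 at least 2-fold below (15.3%, against 10.4%). In D1, 5 were above (5.1%, against 10.8%) and 47 below (48.0%, against 10.8%). In D3, 4 were above (4.08%, against 13.1%) and 52 below (53.1%, against 11.8%). The low share above booting in D1 depended on the list, since for the 50 highest scores it was 10.2%, near that of all loci. In D3 the share was 6.12% for those 50, still below that of all loci. The median differences from booting were -0.90 in D1, 0.84 in D2 and -1.09 in D3, against 0.02, 0.03 and 0.03 over all loci.

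Read against booting, 80 of the 98 members show 1 of 2 patterns. Most of all loci do so as well, and the members differ from them in how they divide between the 2. In 36 members (36.7%, against 69.5% of all loci and 63.1% of those with the same minimum in D2) both D1 and D3 were within 2-fold of booting. In 32 of these D2 was at least 2-fold above booting, as in Sobic.009G245000. Values under 1 FPKM are always within 2-fold of each other on this scale, so this pattern takes in loci near 0. Both D1 and D3 were under 1 FPKM in 31 members and in 24.9% of all loci. In 44 members (44.9%, against 8.14% of all loci and 8.32% of those with the same minimum in D2) both D1 and D3 were at least 2-fold below booting. In 28 of these D2 was within 2-fold of booting, as in Sobic.002G217100, Sobic.001G187700 and Sobic.001G412400. The last of these (chromosome 1, 69491128 to 69494072) was at 24.8 FPKM at booting, 1.53 in D1, 13.1 in D2 and 0.418 in D3. By the choice, D2 of every member was at least 1.27 above D1 and D3 on the log2 scale. The place of D2 in either pattern is therefore in part set by the rule. D2 was the drought group nearest to booting for 47 of 98 members, D3 for 32 and D1 for 19, where over all loci the shares were 34.9% for D2, 30.2% for D3 and 34.9% for D1. By the median distance D2 was nevertheless the farthest from booting. That distance, in either direction, was 1.33 on the log2 scale for D2, against 1.16 for D1 and 1.21 for D3.

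Seen over all 7 groups, D2 was the highest for 43 of 98 members (9.88% of all loci), and for the other 55 at least 1 stage was higher. The rule put D2 above D1 and D3 in every member but not in all loci, so the excess over all loci is in part set by the choice. Floral initiation was above D2 in 39 members (39.8%, against 45.6% of all loci and 39.6% of those with the same minimum in D2). Booting was above D2 in 33 (33.7%, against 46.8% and 43.5%), the milky stage in 32 (32.7%, against 45.2% and 44.1%) and soft dough in 27 (27.6%, against 45.3% and 43.9%). Across members, D2 values ranked most like those at booting, with a Spearman's rho of 0.60, followed by soft dough with 0.51, the milky stage with 0.43 and floral initiation with 0.37. These run across genes, whose values are not independent, and over the 13990 loci with the same minimum in D2 the order was another, with 0.84 for booting, 0.85 for soft dough, 0.75 for the milky stage and 0.76 for floral initiation.

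**Figure D5:**
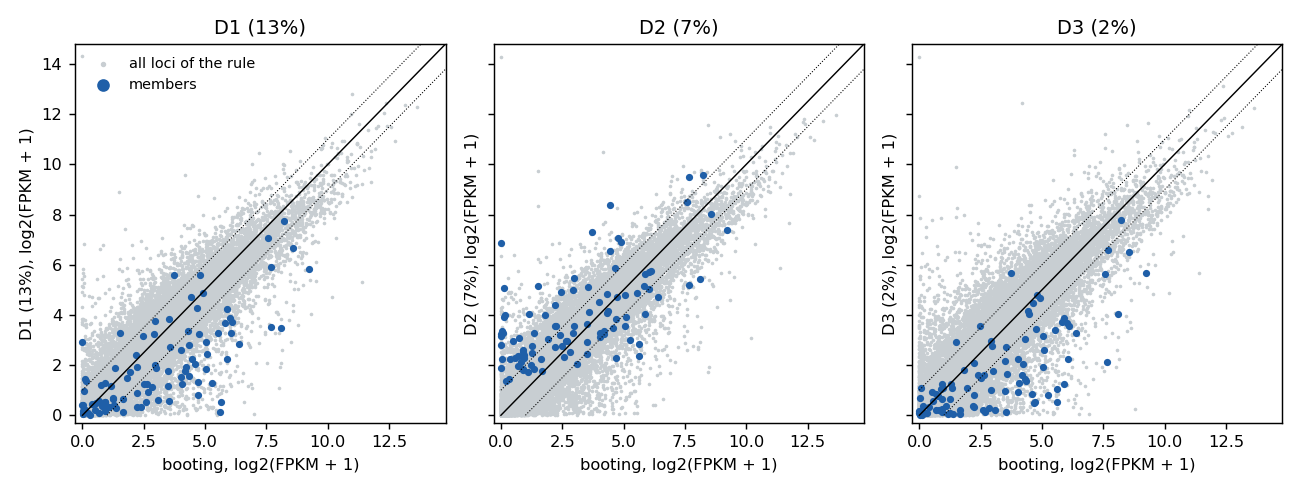
Each drought group against booting, both as log2(FPKM + 1), for the 98 members (blue) and all 20543 loci of the rule read in both tables (grey), with the line of equality and dotted lines at a difference of 1. Members gather below the line in D1 and D3, where 47 and 52 are at least 2-fold below booting, and above it in D2, where 46 are at least 2-fold above.

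Members lay on all 10 chromosomes, with 23 on chromosome 1, 15 on chromosome 6 and 13 on chromosome 3. Of all loci, 8.86% lay on chromosome 6, 18.1% on chromosome 1 and 14.5% on chromosome 3, while chromosome 4, with 11.5% of all loci, held 7 members. Their loci spanned a median of 2724 bases, against 4063 for all loci and 4394 for those with the same minimum in D2.

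Within 100 kb of another member lay 20 of the 100, in 11 pairs, and 4 of these pairs had no other locus of a single gene between them. No such count was made for other lists of loci, so whether members lie closer together than other loci was not tested. The pair on chromosome 9, Sobic.009G245900 and Sobic.009G246000, is 1136 bases apart, and Sobic.009G245000 lies 80240 bases before it. On chromosome 4, Sobic.004G295500 (63531195 to 63532671) and Sobic.004G295600 (63543776 to 63544990) are 11105 bases apart. The first was at 0.0809 FPKM in D1, 2.43 in D2 and 0.0229 in D3, and the second at 0.557, 3.68 and 0.164. Both were at about 2 FPKM at booting (2.17 and 2.11) and higher in the stages after it, at 26.7 and 35.6 FPKM for the first and 13.3 and 14.9 for the second.

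On chromosome 6, Sobic.006G145901 (50785876 to 50795359) and Sobic.006G146000 (50796166 to 50801805) are 807 bases apart. Their values were 13.2 and 6.02 FPKM in D1, 33.5 and 16.7 in D2, and 5.59 and 1.61 in D3, and their stage values lay between 7.81 and 19.5. Sobic.006G147400 follows 94017 bases after the second, with 15 loci of a single gene between them, and unlike the pair it was under 1 FPKM in every stage.

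The remaining pair is Sobic.003G085300 and Sobic.003G085400, which carry the same drought coordinates. Sobic.003G085400 was at 0.242 FPKM in D1, 10.9 in D2 and 3.29 in D3, and between 0.529 and 3.62 in the stages. In both, D3 was above D1. In all, 11 members share their drought coordinates with another entry, so that reads near the border of such genes may have been counted for either. The same was not counted over all loci, so whether such sharing is particular to the members was not tested.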

How the data were processed

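The authors deposited FPKM as 1 value per locus and group, per the file headers, in a stage table and a drought table with loci of their own. HISAT2 2.0.5, Bowtie2 2.2.9, Cuffdiff and cutadapt 1.8.1 are named, without their roles, per the submitters' processing notes. The build, the annotation and the way a group's 2 libraries became 1 value are not given in the sources used here. Printed positions come from the drought table, and whether they count from 0 or 1 is not stated.

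Repeated drought entries were taken once, leaving 32705 named loci, and the rule was applied to 20898 of them. Loci were matched to the stage table by name. The other 2 members, Sobic.006G158600 and Sobic.001G095700, are part of joined stage loci there and have no stage value of their own. Differences are of log2(FPKM + 1), which understates changes of low loci, and 2-fold means a difference of at least 1. With 1 value per group no test was possible, and the p-values of a model across libraries could not be had. An exact 0 may be a failed estimate and is given as listed at 0.

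The members and lists were chosen with earlier results of these data known. Named members are the 15 with the highest score, the 10 highest in D2, the 5 with the widest difference between floral initiation and soft dough in each direction, the 5 highest in a stage, neighbouring members, those at the limit of the list and Sobic.006G147400. Sobic.006G060500, one of these, was at 12.7 FPKM at floral initiation and 4.10 in D2. Lists by product name and promoter motifs had been planned and could not be formed, since 0 identifiers matched the RefSeq table of the assembly NCBIv3. The selection step was tested on simulated data. Python 3.11.15, pandas 2.3.3, numpy 2.4.6, scipy 1.17.1 and matplotlib 3.10.9 were used.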

Additional observations from a re-analysis of the deposited data

How the results depend on the processing

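Which loci count as members depends on the offset added to FPKM. Of the 100 members, 60 were also among the 100 chosen with an offset of 0.1 and 65 with an offset of 5, 74 with a minimum of 5 FPKM in D2, 81 with loci listed at 0 admitted, 95 with joined loci admitted, 93 after quantile normalization and 99 after median-of-ratios scaling. Loci with a score of at least 1 numbered 187, or 510 with an offset of 0.1 and 66 with an offset of 5. The share of members under 1 FPKM in all 4 stages was 18.4%, or 30.3% with an offset of 0.1, 10.3% with an offset of 5 and 30.6% with loci listed at 0 admitted. Members with another member nearby numbered 20 within 100 kb, 8 within 50 kb and 31 within 250 kb. Of 107 recomputed values of the main shares and counts, these 7 moved by over 1.5 times. Of 121 other recomputed values 9 did, among them the share highest at soft dough, 11.2%, which was 17.2% with an offset of 0.1 and 17.5% for 200 loci. The share at least 2-fold above booting in D1, 5.1%, was 10.2% for 50 loci, 8.16% with a minimum of 5 FPKM, 3.09% with an offset of 5 and 2.74% for loci placed alike. In D3 it was 4.08%, or 7.14% with that minimum and 2.27% without members sharing a locus. The recomputed lists of 50 and 200 loci and the restriction to loci placed alike in both tables gave no further shift of that size in these main values, and neither did leaving out the 11 members that share a drought locus, which was chosen after seeing the data, as was the comparison with loci of the same minimum in D2. The cause of the shifts with the offset follows from its construction, since a small offset favours low loci. Leaving out a library could not be tried, and no paired analysis was possible because only group values were deposited.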

Other observations

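The rule left out loci listed at 0 in D1 or D3, and 20 such loci of a single gene had a score at or above that of the lowest member, with the value 0 in place of a measured one. Of these, 17 were under 1 FPKM in all 4 stages, 8 are listed at 0 in all 4, and 10 are listed at 0 in both D1 and D3. The same was not counted over all 10598 loci of a single gene listed at 0 in a drought group. Low stage values can therefore not be called particular to these 20. Sobic.004G016100 (chromosome 4, 1283355 to 1287122) was at 17.5 FPKM in D2 and 0.012 in D3 and is listed at 0 in the other 5 groups. Sobic.008G075566 (chromosome 8, 11203560 to 11203929), at 10.2 FPKM in D2, and Sobic.003G418800 (chromosome 3, 72440052 to 72441147), at 9.38, are listed at 0 in all other groups. Sobic.007G181300 (chromosome 7, 61464708 to 61466596) differed from these. It was at 22.7 FPKM at floral initiation, 18.0 at booting and 5.99 in D2, and is listed at 0 at the milky stage, at soft dough and in D1. These loci were chosen after their values were seen.

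A further 6 loci that join several genes had scores in the range of the members. The highest of them, Sobic.005G212500 joined with Sobic.005G212600 (chromosome 5, 69862868 to 69880625), was at 14.1 FPKM in D1, 45.7 in D2 and 4.86 in D3, and which of its genes carries the peak cannot be told from these values.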
